A study of Mus musculus with 22 samples.

Results

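The CIDE genes Cidea, Cideb and Cidec were followed across inguinal white fat of 4 groups of mice. They were taken by gene symbol as probe sets that carry no other symbol, and 2 of the 3 genes, Cidea and Cidec, had such a probe set (1 each) among 22180 genes in all. Cideb had none, because the single probe set listed for it is also listed for the ribosome-biogenesis gene Nop9. The groups were PPARα-null mice moved to 5 °C for 10 days (5 mice), wild-type mice moved to 5 °C for 10 days (5 mice), PPARα-null mice kept at 28 °C (6 mice) and wild-type mice kept at 28 °C (6 mice). PPARα, the product of Ppara, is a nuclear receptor that fatty acids activate. All were male, on a C57BL/6 background, and 3 to 4 months old when housing at 28 °C began. All 4 groups first spent 5 weeks at 28 °C, and both cold groups passed 1 week at 21 °C before the 5 °C period, so the cold comparisons include that step. The genotypes came as separate strains and were bred on at the study's animal facility, and no tissue-restricted driver is named for the null allele. The study housed 10 mice in each group, and how the 22 arrayed mice were picked is not stated. Each array held the RNA of 1 mouse, and values are log2 units, so that a difference of 1 is a doubling of signal.

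CIDE proteins sit on lipid droplets, gather where droplets touch and pass lipid from the smaller to the larger one, so that droplets grow. Cidea is best known from brown and beige adipocytes and is used as a marker of them. Cidec, also called Fsp27, helps to build the single large droplet of the white adipocyte together with the droplet coat protein Plin1. Cideb is best known from liver and intestine, where it takes part in loading lipid onto lipoproteins. All have an N-terminal domain that they share with the DNA fragmentation factors Dffa and Dffb, after which the family is named.

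Start-flanking sequences were at hand for Cideb (chromosome 14) and Cidec (chromosome 6), and they are shown because PPAR and C/EBP proteins are textbook regulators of adipocyte lipid genes and the null mice lack PPARα. Each stretch runs from 250 bases before to 50 bases after a RefSeq start on build GRCm38.p6, minus strand, and is written 5′ to 3′ in lower case. Capitals mark a match to a searched motif. Cideb lies at chr14:55758375-55758674, and the Cidec starts, 996 bases apart, lie at chr6:113435711-113436010 (start 1) and chr6:113434715-113435014 (start 2).
Cideb: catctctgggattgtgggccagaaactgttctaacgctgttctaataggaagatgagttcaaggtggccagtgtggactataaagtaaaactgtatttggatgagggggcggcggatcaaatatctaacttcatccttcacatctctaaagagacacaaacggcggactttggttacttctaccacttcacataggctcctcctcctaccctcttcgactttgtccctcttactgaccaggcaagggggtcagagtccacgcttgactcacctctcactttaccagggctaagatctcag
Cidec start 1: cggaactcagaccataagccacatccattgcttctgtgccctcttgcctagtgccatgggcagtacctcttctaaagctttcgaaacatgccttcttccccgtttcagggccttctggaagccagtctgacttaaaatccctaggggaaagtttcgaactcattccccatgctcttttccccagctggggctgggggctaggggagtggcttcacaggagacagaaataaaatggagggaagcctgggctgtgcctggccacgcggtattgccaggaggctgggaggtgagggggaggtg
Cidec start 2: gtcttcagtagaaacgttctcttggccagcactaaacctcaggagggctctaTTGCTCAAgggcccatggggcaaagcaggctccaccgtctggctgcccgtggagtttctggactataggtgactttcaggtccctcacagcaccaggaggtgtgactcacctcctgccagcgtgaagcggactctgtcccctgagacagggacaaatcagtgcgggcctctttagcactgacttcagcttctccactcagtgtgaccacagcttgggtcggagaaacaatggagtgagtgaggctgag
The letters searched on both strands were AGGTCA (a nuclear receptor half-site), the PPAR-type direct repeat (AGGNCA repeated with 1 base between the copies, which can overlap AGGTCA) and the C/EBP-type TTGCNNAA. The 1 match in these 3 stretches was TTGCTCAA, at position -198 counted back from Cidec start 2. Of all 32851 stretches of this length, 10.8% held TTGCNNAA, 16.3% held AGGTCA and 0.381% held the direct repeat. A match is a match of letters, and a missing one says only that these letters are not in the window.

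The precision is limited by the number of mice and by how bright a probe set is. Correlations between any pair of arrays ran from 0.966 to 0.990, and no array stood apart. The single Ppara probe set read 5.77 to 7.10 in null mice at 5 °C, 6.13 to 6.98 in wild-type mice at 5 °C, 4.14 to 5.45 in null mice at 28 °C and 4.42 to 5.00 in wild-type mice at 28 °C. These ranges overlap between the genotypes, and whether the probes fall inside the disrupted stretch of Ppara is not stated by the labels. The signal is therefore no check of the genotypes. Of 11 measured white-adipocyte markers, Fabp4, Retn, Lpl and Cd36 averaged above 12 log2 units in all groups. The others were lower, down to 8.88 for Slc2a4 in null mice at 28 °C. Brightness cannot be compared between probe sets, so these levels are no measure of adipocyte content. The mean of the 11 was 11.0005 to 11.14 in null mice at 5 °C, 10.89 to 11.14 in wild-type mice at 5 °C, 10.91 to 11.10 in null mice at 28 °C and 10.98 to 11.11 in wild-type mice at 28 °C.

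The first comparison asks what the cold does to each CIDE gene when PPARα is missing and when it is present. Cidea was several times higher in the cold in both genotypes, whereas the Cidec signal hardly moved in either. In null mice at 5 °C the 5 Cidea values were 11.08, 10.89, 10.67, 11.02 and 11.07, and in null mice at 28 °C they ran from 7.45 through a median of 7.92 to 9.13. Every cold null mouse lay above every null mouse at 28 °C, with 1.54 log2 units between the groups. Cidea rose by 2.83 log2 units in null mice (SE 0.25, adjusted p = 4.94e-08 by limma with Benjamini-Hochberg adjustment over all genes), or 7.11-fold. In wild-type mice at 5 °C Cidea read 11.32, 10.97, 11.11, 10.67 and 11.03, and in wild-type mice at 28 °C it ran from 7.40 through a median of 8.44 to 8.82. The groups again did not overlap, with a gap of 1.85 log2 units. The share of all genes whose groups separate in this way was not counted. The rise in wild-type mice was 2.67 log2 units (SE 0.25, limma adjusted p = 8.32e-08), or 6.37-fold. Among all 22180 genes these were the 7th largest increase in null mice and the 9th largest in wild-type mice.

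**Figure D1:**
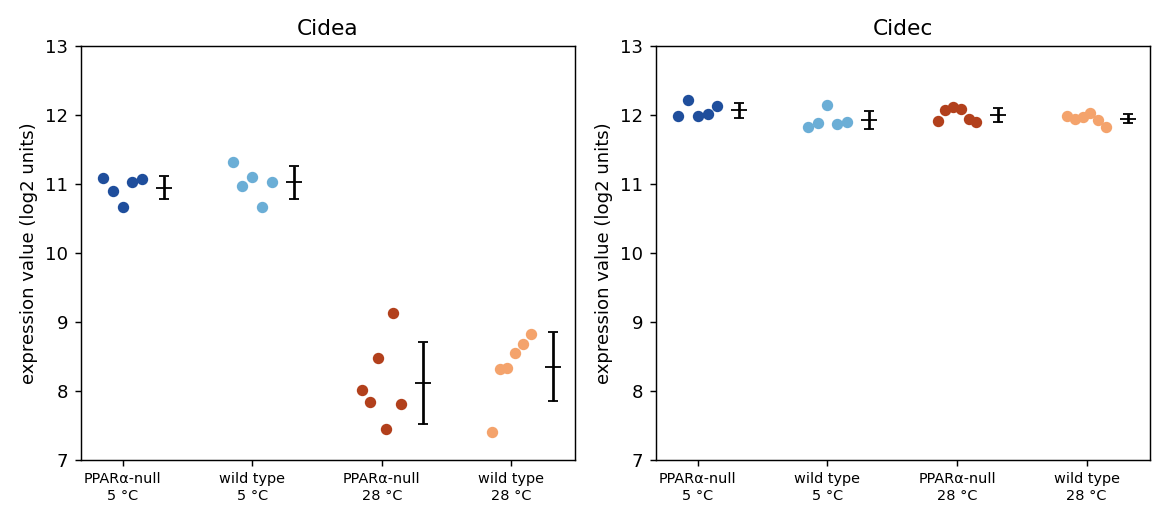
Expression values (log2 units) of Cidea (left) and Cidec (right) in each mouse, 1 point per mouse, with the group mean and SD as a black bar beside the points; brightness is not compared between the genes. Cold mice lie between 10.67 and 11.32 for Cidea and mice at 28 °C between 7.40 and 9.13, while all 22 Cidec values lie between 11.82 and 12.22.

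Cidec has 1 probe set, so its 2 starts were not read apart. It gave 11.98, 12.22, 11.99, 12.01 and 12.13 in null mice at 5 °C, and 11.89 to 12.12 with a median of 11.9996 in null mice at 28 °C. In wild-type mice it gave 11.82, 11.89, 12.14, 11.87 and 11.89 at 5 °C, and 11.82 to 12.02 with a median of 11.95 at 28 °C. The cold and 28 °C groups overlapped in each genotype. The change with cold was 0.06 log2 units in null mice (SE 0.07, 95% interval −0.08 to 0.21, limma adjusted p = 0.654) and −0.02 in wild-type mice (SE 0.07, 95% interval −0.17 to 0.13, limma adjusted p = 0.890). The null value was 0.03 without cold null replicate 2. The sign of the wild-type value turned to 0.04 with each array's median subtracted. These intervals lie far inside a doubling, although the Cidec signal is close to the brightest on the arrays (13.10 to 13.26), and whether so bright a probe set understates a change was not tested. Thus 1 of the 2 measured CIDE genes was called in each genotype, against 13.2% of all genes in null mice (6.88% higher and 6.33% lower) and 16.7% in wild-type mice (8.35% higher and 8.3% lower).

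The SD of Cidea was smaller at 5 °C than at 28 °C. It was 0.17 in null mice at 5 °C (n = 5), 0.24 in wild-type mice at 5 °C (n = 5), 0.60 in null mice at 28 °C (n = 6) and 0.50 in wild-type mice at 28 °C (n = 6). The widest values were 1 null mouse at 9.13 (replicate 5) and 1 wild-type mouse at 7.40 (replicate 1), both at 28 °C. Without the first the rise in null mice was 3.03, and without the second the rise in wild-type mice was 2.48. For Cidec the SD stayed between 0.07 and 0.13 in all groups. A test of the difference in spread was not made.

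The unequal response of the genes was tested inside each mouse, as the Cidea value minus the Cidec value. Only changes of this difference are read, since the brightness of different probe sets cannot be compared. It was −1.12 ± 0.20 in null mice at 5 °C (SD, n = 5) and −3.88 ± 0.62 in null mice at 28 °C (SD, n = 6). Cold changed it by 2.76 log2 units (p = 0.00216, exact permutation over all 462 splits, two-sided). In wild-type mice it was −0.90 ± 0.26 at 5 °C (SD, n = 5) and −3.60 ± 0.54 at 28 °C (SD, n = 6), a change of 2.69 with the same exact permutation p of 0.00216. That is the smallest p these splits can give, and it stayed 0.00216 after adjustment over both tests. All 5 cold mice of each genotype lay above all 6 mice at 28 °C. The Cidea groups were 1.54 and 1.85 log2 units apart, while all Cidec values lay within 0.40. The separation, and with it the p, therefore follows from the Cidea values and adds no support of its own.

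**Figure D2:**
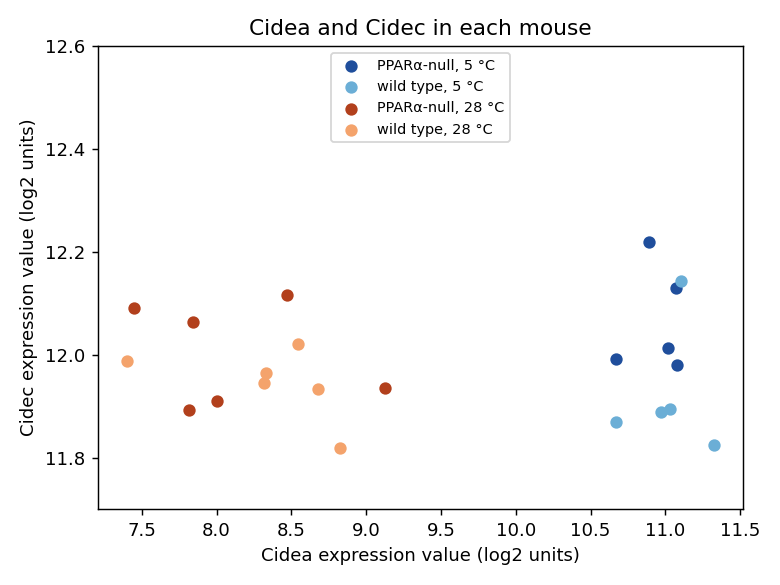
Cidea (horizontal axis) against Cidec (vertical axis), both in log2 units, 1 point per mouse and 1 colour per group. The cold mice sit to the right of all mice at 28 °C, while on the vertical axis, which spans less than 1 log2 unit, the groups overlap.

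Within a temperature the pair showed no relation past the test. Between Cidea and Cidec Pearson's r was −0.37 over the 12 mice at 28 °C (permutation p = 0.239, Spearman's rho −0.30, permutation p = 0.344). Over the 10 mice at 5 °C it was −0.05 (permutation p = 0.881, rho −0.05, permutation p = 0.892). Cidea and Ucp1, which lets brown-fat mitochondria make heat, gave r = 0.27 at 28 °C (permutation p = 0.391, rho 0.17, permutation p = 0.586) and r = 0.42 at 5 °C (permutation p = 0.227, rho 0.49, permutation p = 0.153). Cidec and Plin1, its partner on the droplet, gave r = 0.53 at 28 °C (permutation p = 0.0732, rho 0.45, permutation p = 0.141) and r = 0.44 at 5 °C (permutation p = 0.205, rho 0.24, permutation p = 0.511). None of these 6 relations passed after adjustment (lowest adjusted p = 0.358 for r and 0.458 for rho), also with values centred on the genotype mean (lowest adjusted p = 0.308 for r and 0.310 for rho). Without the 2 mice farthest from the median of the first gene, r was −0.19 and −0.51 for Cidea with Cidec, 0.19 and 0.14 for Cidea with Ucp1, and 0.20 and −0.02 for Cidec with Plin1 at 28 °C and 5 °C in turn. The Cidec and Plin1 value thus fell at both temperatures. Leaving out the extreme mice also narrows the range of the first gene, so the fall does not show what a relation rests on.

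The comparison of the genotypes asks whether PPARα sets the level of the CIDE genes or their response to cold. No effect of genotype on either gene passed the test. At 5 °C Cidea differed by −0.07 log2 units between null and wild-type mice (SE 0.26, 95% interval −0.61 to 0.46, limma adjusted p = 0.980) and Cidec by 0.14 (SE 0.07, 95% interval −0.01 to 0.30, limma adjusted p = 0.798). The genotypes overlapped for both genes. The Cidea sign at 5 °C turned without wild-type replicate 1 (0.0022). The Cidec value at 5 °C was 0.20 without wild-type replicate 3 (95% interval 0.05 to 0.35, limma adjusted p = 0.546). It was 0.19 with quantile normalization repeated (95% interval 0.04 to 0.34, limma adjusted p = 0.592). Without null replicate 2 it was 0.10 (95% interval −0.06 to 0.26, limma adjusted p = 0.946). It passed after adjustment in none of these. At 28 °C Cidea differed by −0.23 (SE 0.23, 95% interval −0.72 to 0.25, limma adjusted p = 0.916) and Cidec by 0.06 (SE 0.07, 95% interval −0.08 to 0.20, limma adjusted p = 0.938). The 28 °C value of Cidea was −0.43 without null replicate 5, −0.42 without wild-type replicate 1 and −0.10 without null replicate 4, and passed in none of these. That of Cidec was 0.03 without wild-type replicate 6 or null replicate 3. Calls were rare throughout, at 0.149% of all genes at 5 °C and 0.194% at 28 °C.

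The cold effects themselves differed between null and wild-type mice by 0.16 log2 units for Cidea (SE 0.35, 95% interval −0.56 to 0.88, limma adjusted p = 0.999) and by 0.09 for Cidec (SE 0.10, 95% interval −0.12 to 0.29, limma adjusted p = 0.999). Over all 22180 genes limma called 0 such differences, with 1137 at an unadjusted p under 0.05. For Cidea this interval stands beside a rise of 2.67 in wild-type mice. Any difference from −0.56 to 0.88 lies inside this interval, so a difference of such a size is not excluded with these numbers of mice. Leaving out null replicate 5 or null replicate 4 at 28 °C moved the Cidea difference to 0.36 or 0.02, neither past the test. The Cidec difference was 0.14 without cold wild-type replicate 3 and 0.05 without cold null replicate 2, neither past the test.

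Cideb could not be read alone, but the probe set it shares with Nop9 moved with cold. In null mice at 5 °C this probe set read 6.27, 6.10, 5.69, 5.47 and 5.78, and in null mice at 28 °C 3.77 to 4.33 with a median of 4.22. In wild-type mice it read 6.26, 5.53, 6.02, 5.82 and 6.21 at 5 °C, and 3.36 to 4.15 with a median of 4.01 at 28 °C. All 10 cold mice lay above all 12 mice at 28 °C, and the share of all probe sets that separate so fully was not counted. In a limma fit over all 41345 probe sets, chosen after seeing the data, the shared probe set rose by 1.74 log2 units in null mice (SE 0.17, adjusted p = 5.86e-07) and by 2.06 in wild-type mice (SE 0.17, adjusted p = 6.49e-08). In that fit 7.49% of probe sets were called in null mice (3.96% higher) and 10.2% in wild-type mice (5.11% higher). The difference of these effects, −0.32 (95% interval −0.82 to 0.18), did not pass (limma adjusted p = 0.964).

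Nop9 also has a probe set of its own, and it did not pass with cold. It averaged 6.00 ± 0.09 in null mice at 5 °C (SD, n = 5) and 5.96 ± 0.11 in null mice at 28 °C (SD, n = 6), a change of 0.04 (95% interval −0.15 to 0.23, limma adjusted p = 0.891 in the same fit). In wild-type mice it averaged 5.84 ± 0.22 at 5 °C (SD, n = 5) and 5.79 ± 0.11 at 28 °C (SD, n = 6), a change of 0.06 (95% interval −0.13 to 0.25, limma adjusted p = 0.782). In the RefSeq table for GRCm38.p6 the extents of Nop9 and Cideb overlap on chromosome 14, and Cideb also overlaps the leukotriene receptor gene Ltb4r2. Its neighbour Ltb4r1, a leukotriene receptor gene too, does not overlap Cideb. Ltb4r1 changed by −0.11 in null mice and −0.16 in wild-type mice, neither past the test (limma adjusted p = 0.816 and 0.669). No value is given for Ltb4r2. Which gene the shared probe set reports was not tested, and no level or change is given for Cideb.

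**Figure D3:**
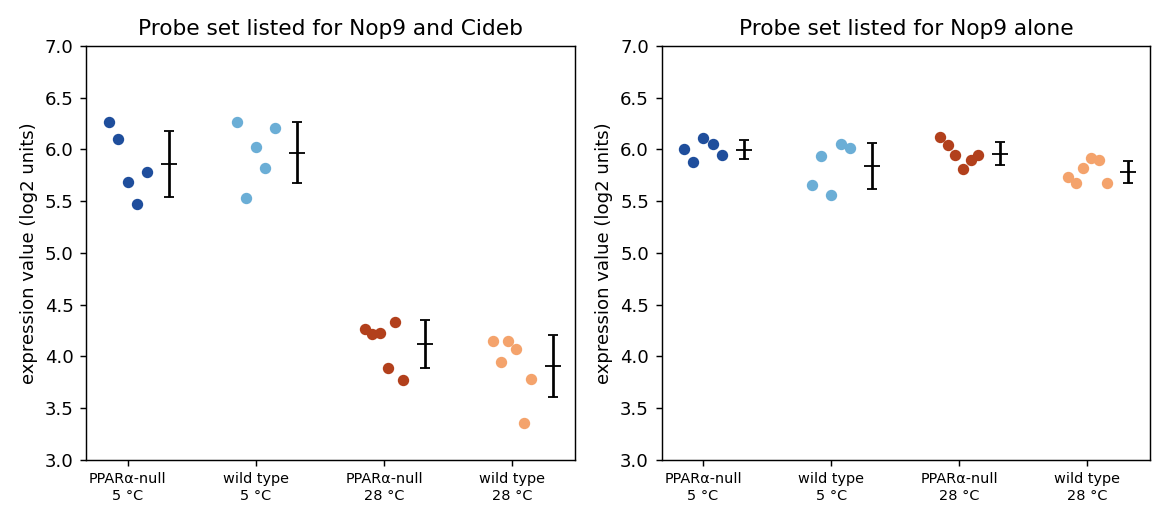
Expression values (log2 units) of the probe set listed for both Nop9 and Cideb (left) and of the probe set listed for Nop9 alone (right), 1 point per mouse, with the group mean and SD as a black bar. Cold mice lie between 5.47 and 6.27 on the left against 3.36 to 4.33 at 28 °C, while on the right all groups overlap.

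Both relatives that share the CIDE N-terminal domain stayed near 0. Dffa, the inhibitor of the DNA fragmentation nuclease, changed by −0.03 in null and 0.07 in wild-type mice. Dffb, the nuclease, changed by 0.04 and −0.15, and neither gene passed the test (limma adjusted p of 0.436 or more).

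Other proteins of the droplet surface gave a mixed picture. Of 18 measured genes for droplet coat and size proteins, 5 rose and 0 fell in null mice, and 4 rose and 1 fell in wild-type mice, with median changes of 0.11 and 0.09. Over all genes 6.88% rose and 6.33% fell in null mice and 8.35% rose and 8.3% fell in wild-type mice, with medians of −0.0034 and 0.0093. Plin5, a perilipin of tissues that burn fat, rose by 2.02 in null mice (SE 0.17, limma adjusted p = 3.77e-08) and by 2.25 in wild-type mice (SE 0.17, limma adjusted p = 7.57e-09). Plin2, the coat protein of small droplets, rose by 0.84 and 0.83. Fitm2, an endoplasmic reticulum protein needed for droplet formation, rose by 0.56 and 0.67. Bscl2, or seipin, which sits where droplets form, rose by 0.34 in wild-type mice and was 0.21 higher in null mice (limma adjusted p = 0.0807). The caveola protein Cav1 fell by 0.27 in wild-type mice and was 0.16 lower in null mice (limma adjusted p = 0.203). Plin1 was 0.02 higher in null and 0.03 lower in wild-type mice, past the test in neither (limma adjusted p = 0.920 and 0.842).

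**Figure D4:**
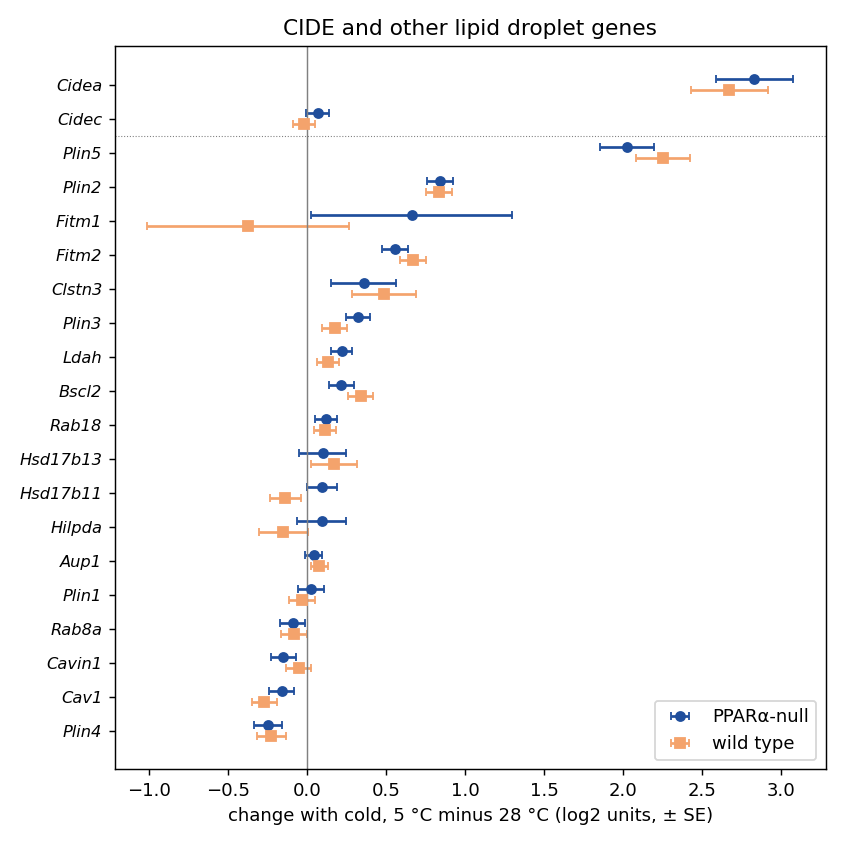
Change with cold (5 °C minus 28 °C, log2 units, bars are SE from the fit) of Cidea, Cidec and 18 other lipid droplet genes in PPARα-null mice (circles, upper of each pair) and wild-type mice (squares, lower). Cidea (2.83 and 2.67) and Plin5 (2.02 and 2.25) stand to the right, and Cidec and Plin1 lie at the zero line.

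The enzymes that fill and empty the droplet moved by less than Cidea. Of 8 measured triglyceride synthesis genes, 5 rose in null and 7 in wild-type mice, with median changes of 0.56 and 0.71, against 6.88% and 8.35% of all genes higher and all-gene medians of −0.0034 and 0.0093. The acyltransferases Agpat2 (0.98 in null, 1.16 in wild-type mice) and Dgat1 (0.90 and 0.77), the glycerol phosphate dehydrogenase Gpd1 (0.97 and 1.09) and the phosphatidate phosphatase Lpin1 (0.54 and 0.66) were among them. Of 7 triglyceride breakdown genes, 3 rose in null and 4 in wild-type mice, with median changes of 0.33 and 0.40. These were the lysosomal lipase Lipa (0.34 and 0.40), the lipase coactivator Abhd5 (0.33 and 0.42) and the monoglyceride lipase Mgll (0.24 and 0.25). G0s2, an inhibitor of the lipase Pnpla2, rose by 0.60 in wild-type mice and was 0.46 higher in null mice (limma adjusted p = 0.113). Of 5 lipoprotein maturation genes, the setting in which Cideb is known, 1 rose and 0 fell in wild-type mice (Apoc3, 0.59). Of all genes 16.7% were called there in either direction and 8.35% higher, and 1 call is too few to set apart from these shares. In null mice limma called 0 of the 5 lipoprotein maturation genes, with 1 at an unadjusted p under 0.05 (Apoc3, 0.43, adjusted p = 0.119).

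Known regulators of CIDE genes also gave a mixed picture. Of 14 measured, 6 rose and 0 fell in null mice, and 6 rose and 1 fell in wild-type mice, with median changes of 0.17 and 0.31. The shares over all genes were 6.88% higher and 6.33% lower in null mice and 8.35% higher and 8.3% lower in wild-type mice. The coactivators Ppargc1b (1.47 in null, 1.48 in wild-type mice) and Ppargc1a (1.20 and 1.25), the transcription factor Cebpb (0.77 and 0.94) and the Ppara signal itself (1.42 and 1.87) rose in both. Sp1, a general transcription factor, fell by 0.31 in wild-type mice and was 0.17 lower in null mice (limma adjusted p = 0.176). Pparg and Cebpa, which drive the white-adipocyte programme, changed by 0.10 and 0.19 in null mice and by 0.19 and 0.14 in wild-type mice, past the test in neither. Of 9 brown-fat comparison genes 8 rose in each genotype, with median changes of 2.96 in null and 3.17 in wild-type mice, and this list was known to rise in these data.

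Other cell types in the pad were followed by their markers, beside 13.2% of all genes called in null mice and 16.7% in wild-type mice. All 10 macrophage markers fell in each genotype (medians −0.61 in null and −0.66 in wild-type mice), and so did all 8 markers of preadipocytes and fibroblasts (−0.50 and −0.66). In bulk tissue, fewer cells of a type and less RNA per cell cannot be told apart. The mean of the macrophage markers was 8.05 to 8.22 in null mice at 5 °C and 7.96 to 8.31 in wild-type mice at 5 °C, against 8.57 to 8.88 and 8.63 to 8.90 at 28 °C. The fibroblast mean was 9.26 to 9.39 and 9.21 to 9.41 at 5 °C, against 9.82 to 10.09 and 9.89 to 10.15 at 28 °C. Of 11 white-adipocyte markers, 1 rose in each genotype (Slc2a4), 2 fell in null mice (Adipoq and Lep) and 1 fell in wild-type mice (Adipoq), a share near that of all genes in wild-type mice. Of 7 endothelial markers, Tek fell in both genotypes and Kdr rose in wild-type mice. Limma called 0 of 10 skeletal muscle, 0 of 9 B and T cell and 0 of 7 epithelial markers with cold in either genotype, and 0 had an unadjusted p under 0.05. The B and T cell mean was 4.02 to 6.93 in null and 4.32 to 5.90 in wild-type mice at 5 °C, against 4.66 to 8.18 and 4.46 to 7.58 at 28 °C. The skeletal muscle mean was 6.44 to 9.54 and 6.29 to 10.00 at 5 °C, against 5.85 to 8.56 and 7.25 to 9.32 at 28 °C. Of 5 liver markers 1 rose in null mice (Alb, 0.92) and limma called 0 in wild-type mice (1 at an unadjusted p under 0.05). Alb also differed between the genotypes at 28 °C by −1.27 (limma adjusted p = 0.000687), with means of 7.59 in null and 8.86 in wild-type mice, against 8.51 in null and 8.79 in wild-type mice at 5 °C (limma adjusted p = 0.869). The skeletal muscle markers were lower in null than in wild-type mice at 28 °C, with a median difference of −1.64 (−2.01 to −0.02). Limma called 0 of these 10 for genotype at 28 °C, with 7 at an unadjusted p under 0.05. At 5 °C their median difference was −0.47, with 0 called and 0 at an unadjusted p under 0.05. The part of these shifts in the Cidea rise, or in the genotype comparison at 28 °C, was not tested.

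The genes whose pattern was most like that of each CIDE gene were ranked by Pearson's r, as a description. Predicted genes (Gm and Rik symbols), microRNAs, small nucleolar RNAs and olfactory or vomeronasal receptors were left out of this ranking. Over the 22 arrays, which share the 4 groups, the highest r to Cidea belonged to Chchd10, a mitochondrial cristae protein (0.986), the fatty acid oxidation enzyme Acadl (0.982), the cytochrome oxidase subunit Cox8b (0.982), the G-protein regulator Rgs7 (0.981) and Hadha, a subunit of the trifunctional enzyme of fatty acid oxidation (0.979). After the group means were removed, Chchd10 was again first (0.847), followed by Mpzl2 (0.812), the cardiolipin synthase Crls1 (0.809), Mfsd4b1 (0.802) and Cox8b (0.790). Ucp1 stood at 0.962 over all arrays and at 0.331 after the group means were removed. Cidec had looser company. Its highest values over all arrays were those of Clic4 (0.754), Apoa2 (0.733), Kank4 (0.732), the imprinted gene Peg3 (0.713) and Plch2 (0.709). After the group means were removed they were the serotonin receptor Htr7 (0.806), the calcium channel Cacna1c (0.777), Nckap5 (0.757), Cd209c (0.757) and apolipoprotein Apoe (0.753). With the group means removed, the highest r of Cidec (0.806) was thus close to that of Cidea (0.847). How high the best of so many genes would reach by chance was not tested. Cidea and Cidec had r = 0.04 over all arrays and −0.18 after the group means were removed.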

How the data were processed

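Per the submitters' processing notes the deposited log2 values were made with RMA, which corrects background, normalizes quantiles and summarises probes per probe set. Neither an RMA version nor an annotation build is stated there. All 41345 probe sets of 22 arrays were read with no further scaling. Of these, 23521 had 1 gene symbol, 1814 several and 16010 none in the platform annotation. A gene with several probe sets was represented by the one with the highest mean. The 22180 genes were fitted with limma 3.58.1 (R 4.3.3), 4 groups in 1 fit, with calls at 0.05 after Benjamini-Hochberg adjustment across the 22180 genes. The fit was tested on simulated data. Differences of genes within a mouse were compared by exact permutation over all splits, and relations by 100000 permutations, with Python 3.11.15, pandas 2.3.3 and scipy 1.17.1. Depth is not defined for arrays, so their number limits the precision.

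Cidea and Cidec are given in full. In each list up to 4 called genes with the smallest p in the average cold effect are named, plus calls against the majority, and 5 genes most like each member. The members and lists were chosen with earlier results of these data known. The planned comparisons with Cideb (4 of 6 gene-against-gene tests and 4 of 10 relations) were not made, since it has no probe set of its own. Equal replicate numbers were not taken to pair mice, as residuals of same-numbered mice correlated above 0.1 in 5 of 30 pairs.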

Additional observations from a re-analysis of the deposited data

Results flagged for a closer look

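The probe set shared by Nop9 and Cideb lies outside the gene comparisons, and its signal in the cold was above that at 28 °C, by 1.74 log2 units in null mice and 2.06 in wild-type mice. In groups of wild-type mice 1 value lay far from the rest of its group in each of 2 cases. At 28 °C replicate 1 had a Cidea value of 7.40, and at 5 °C replicate 3 had a Cidec value of 12.14. With 12 groups of values looked at, chance alone flags about 5% of them.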

How the results depend on the processing

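Cidea rose with cold in each genotype under the 10 other settings and in each of the 11 fits without 1 mouse of that genotype. Some settings leave the Cidea and Cidec differences as they are and change only the SE, the interval and the adjusted p. These are filters on dim genes, averaged probe sets, trend and robust variance, and fits on all probe sets or on the compared groups only. For the Cidea genotype effect at 5 °C the interval was -0.61 to 0.46, and -0.35 to 0.21 on the compared groups only. For the Cidec genotype effect at 5 °C it left out 0 with trend and robust variance (0.015 to 0.27). It also did so with the dimmest 50% of genes left out (0.00044 to 0.28), and included 0 in the others of these settings. The limma adjusted p was 0.710 and 0.705, past the test in neither. Without 1 mouse each, the Cidea rise was 2.69 to 3.03 in null and 2.48 to 2.77 in wild-type mice, the difference of the cold effects 0.024 to 0.36, and the genotype effect -0.16 to 0.0022 at 5 °C and -0.43 to -0.098 at 28 °C. For Cidec the null cold change was 0.027 to 0.088, the difference of the cold effects 0.048 to 0.14, and the genotype effect 0.10 to 0.20 at 5 °C and 0.031 to 0.078 at 28 °C. The Cidec cold change in wild-type mice turned to 0.044 with array medians subtracted and to 0.0045 with quantile normalization repeated, and was -0.076 to 0.0043 without 1 mouse each, turning without cold wild-type replicate 1. Genes called for genotype at 5 °C were 33, and 19 with only the groups compared. Without cold wild-type replicate 3, 1 gene was called for the difference of the cold effects instead of 0 (range 0 to 1). Across mice at 5 °C, r turned to -0.024 for Cidec with Plin1 without 2 mice and to 0.071 for Cidea with Cidec centred on genotype means. The causes were not tested. With array medians subtracted, 1802 genes were called higher and 987 lower in null mice (1525 and 1405 as deposited), and 2592 and 1203 in wild-type mice (1852 and 1841). With the replicate block, Cidea rose by 2.85 in null and 2.69 in wild-type mice, and no Cidea or Cidec call changed. Other probe sets of Cidea or Cidec, and results for Cideb, could not be run.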

Other observations

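Near Cidea on chromosome 18, the mitochondrial protease gene Afg3l2 rose with cold by 0.90 in null and 0.99 in wild-type mice (limma adjusted p = 6.41e-08 and 1.50e-08). The other 5 neighbours (Mc4r, Gnal, Chmp1b, Tubb6 and Prelid3a) did not pass, and Tubb6 lies between Cidea and Afg3l2. Next to Cidec on chromosome 6, Jagn1 rose by 0.45 and 0.53 (limma adjusted p = 0.00548 and 0.00109), and the other 5 (Arpc4, Ttll3, Rpusd3, Il17re and Il17rc) did not pass. The 3 nearest measured genes on each side were taken by a rule added after seeing the data. Predicted genes (Gm and Rik symbols), microRNAs, small nucleolar RNAs and olfactory or vomeronasal receptors were passed over. At each gene the share of neighbours called was near that of all genes, 13.2% in null mice and 16.7% in wild-type mice.

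Among the droplet lists, genotype reached the threshold for Pnpla3, an acylhydrolase of the droplet surface. It averaged 9.03 in null and 10.15 in wild-type mice at 28 °C, a difference of -1.12 (SE 0.21, limma adjusted p = 0.0190). At 5 °C it averaged 9.49 in null and 10.57 in wild-type mice, a difference of -1.08 (SE 0.23, limma adjusted p = 0.0712). Pnpla3 and Ppara both lie on chromosome 15.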
